A study of Rattus norvegicus with 18 samples.

Results

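The superior sinoatrial node (sSAN), a piece of tissue from where the superior vena cava meets the right atrium of the rat heart, was compared with the left atrium (LA), a working chamber on the other side of the heart. The comparison holds the 4 libraries labelled sSAN and the 4 labelled LA, of 18 libraries in all, and describes the 14112 genes of 32883 in the table that passed a filter on low counts. Hearts came from healthy male Sprague Dawley rats without treatment, aged 59 days (rats 1 and 2) and 70 days (rats 3 and 4), and libraries whose titles end alike were treated as coming from 1 rat. The pieces were cut by hand, guided by functional recordings from other hearts, so the amounts of nodal, myocardial and other cells in a piece were not controlled. The 4 right atrium (RA) libraries of the same rats were used to ask which node differences also held against the atrium next to the node.

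Total counts were 19945216 to 24252103 in the sSAN and 20756462 to 22562828 in the LA. Levels are CPM (counts scaled to the size of the library) after scaling by the trimmed mean of M values (TMM), values per library are listed in the order of rats 1 to 4, and errors are SD with n = 4 unless a standard error (SE) is named. A CPM of 1 stood for about 20.5 counts. Folds are log2 fold changes of sSAN over LA with their SE, and adjusted p-values are from edgeR's quasi-likelihood test with Benjamini-Hochberg adjustment over all genes tested. The main test did not use the pairing by rat, and the rat as a block was an alternative. A gene was called higher or lower at an adjusted p under 0.05. Genes of the mitochondrial genome took 24.1% to 40.8% of the counts in the sSAN and 18.6% to 20.5% in the LA (p = 0.0286 by an exact permutation test, two-sided, and no smaller p is possible with 4 libraries a group). In bulk RNA, fewer cells of a type and less RNA per cell cannot be told apart.

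Pacemaker cells of the sinus node fire without input because hyperpolarization-activated channels, calcium entry and calcium release from internal stores bring the membrane to threshold again after each beat. Transcription factors such as Shox2, Tbx3 and Isl1 set this program apart from that of the working atrium, where fast conduction and contraction dominate. The node forms on the right side of the embryo.

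Each of 3 genes stands for 1 layer of the comparison. Bmp10 stands for the side of the heart, Isl1 for the node and Ucp1 for fat transcripts in the node pieces. Their 300-base promoters are shown. They run from 250 bases before to 50 after the start site and are RefSeq sequences of build GRCr8 (Bmp10 at chr4:121429125-121429424, plus strand; Isl1 at chr2:49823393-49823692, minus strand; Ucp1 at chr19:41721372-41721671, minus strand). Capitals mark matches, on either strand, to the letters of a TATA box, TATAAA. They also mark, likewise on either strand, the letters of a motif bound by zinc finger factors of the cardiac Gata family, AGATAA. The motifs do not overlap in these promoters.
Bmp10: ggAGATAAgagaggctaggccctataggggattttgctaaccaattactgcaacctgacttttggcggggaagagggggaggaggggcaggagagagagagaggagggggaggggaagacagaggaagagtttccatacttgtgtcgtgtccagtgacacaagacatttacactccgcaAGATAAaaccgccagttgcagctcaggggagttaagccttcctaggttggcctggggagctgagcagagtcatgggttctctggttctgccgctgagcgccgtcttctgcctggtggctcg
Isl1: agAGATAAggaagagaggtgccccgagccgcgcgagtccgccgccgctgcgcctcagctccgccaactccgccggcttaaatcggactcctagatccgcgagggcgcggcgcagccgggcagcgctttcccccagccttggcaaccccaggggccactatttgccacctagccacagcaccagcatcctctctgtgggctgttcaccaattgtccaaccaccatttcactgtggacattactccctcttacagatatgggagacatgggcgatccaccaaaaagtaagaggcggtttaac
Ucp1: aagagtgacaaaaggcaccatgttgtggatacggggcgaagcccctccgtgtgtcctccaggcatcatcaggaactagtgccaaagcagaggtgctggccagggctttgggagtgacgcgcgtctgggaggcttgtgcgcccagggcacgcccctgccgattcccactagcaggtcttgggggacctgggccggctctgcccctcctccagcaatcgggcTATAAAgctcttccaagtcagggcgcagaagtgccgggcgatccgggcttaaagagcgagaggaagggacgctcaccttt
Ucp1 had TATAAA at 30 bases before its start site, Bmp10 had AGATAA at 248 and 71 bases before it, and Isl1 had AGATAA at 248 bases before it. Of 33469 promoters, 14.2% held TATAAA and 11.6% held AGATAA. A match is a run of letters and not a measured binding site.

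Of the 14112 genes tested, 2857 (20.2%) were called, 1670 (11.8%) of them higher in the sSAN and 1187 (8.41%) lower. The list counts given below are to be read against these shares, and a count near them says nothing particular about its list. Large differences lay on the side of the node: past a fold of 3 and with adjusted p under 0.01, 325 genes (2.30%) were higher and 38 (0.269%) were lower. White adipocyte genes had the largest list median. The lowest list medians were those of ventricular myocardium (-0.89) and atrial working myocardium (-0.66). Calcium cycling, sarcomere, connexin and potassium channel genes were among the other lists with medians below 0. The median log2 fold change over all genes tested was 0.02. Each of the LA libraries bore on the counts. Leaving out 1 of them left 968 to 1172 genes higher and 607 to 874 lower, and leaving out sSAN replicate 1 left 1114 higher and 926 lower. At the stringent threshold, leaving out 1 LA library left 106 to 148 higher and 17 to 23 lower, and leaving out sSAN replicate 1 left 196 higher. Genes with few counts in the LA passed the filter through the sSAN and could hardly be called lower, so the counts of lists that hold them are a description. With both libraries of rat 2 left out, 780 were higher and 627 lower, and the 70-day rats alone gave 705 higher and 533 lower. With the CPM of Adipoq, a hormone of fat cells, as a covariate (an alternative chosen after seeing the data), 938 were higher and 698 lower. Of these, 604 and 339 were among the calls without the covariate. With its log2 CPM, the planned covariate, 1 was higher and 0 lower. That covariate correlated with region at 0.950 and made the median SE 3.28 times larger.

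**Figure D1:**
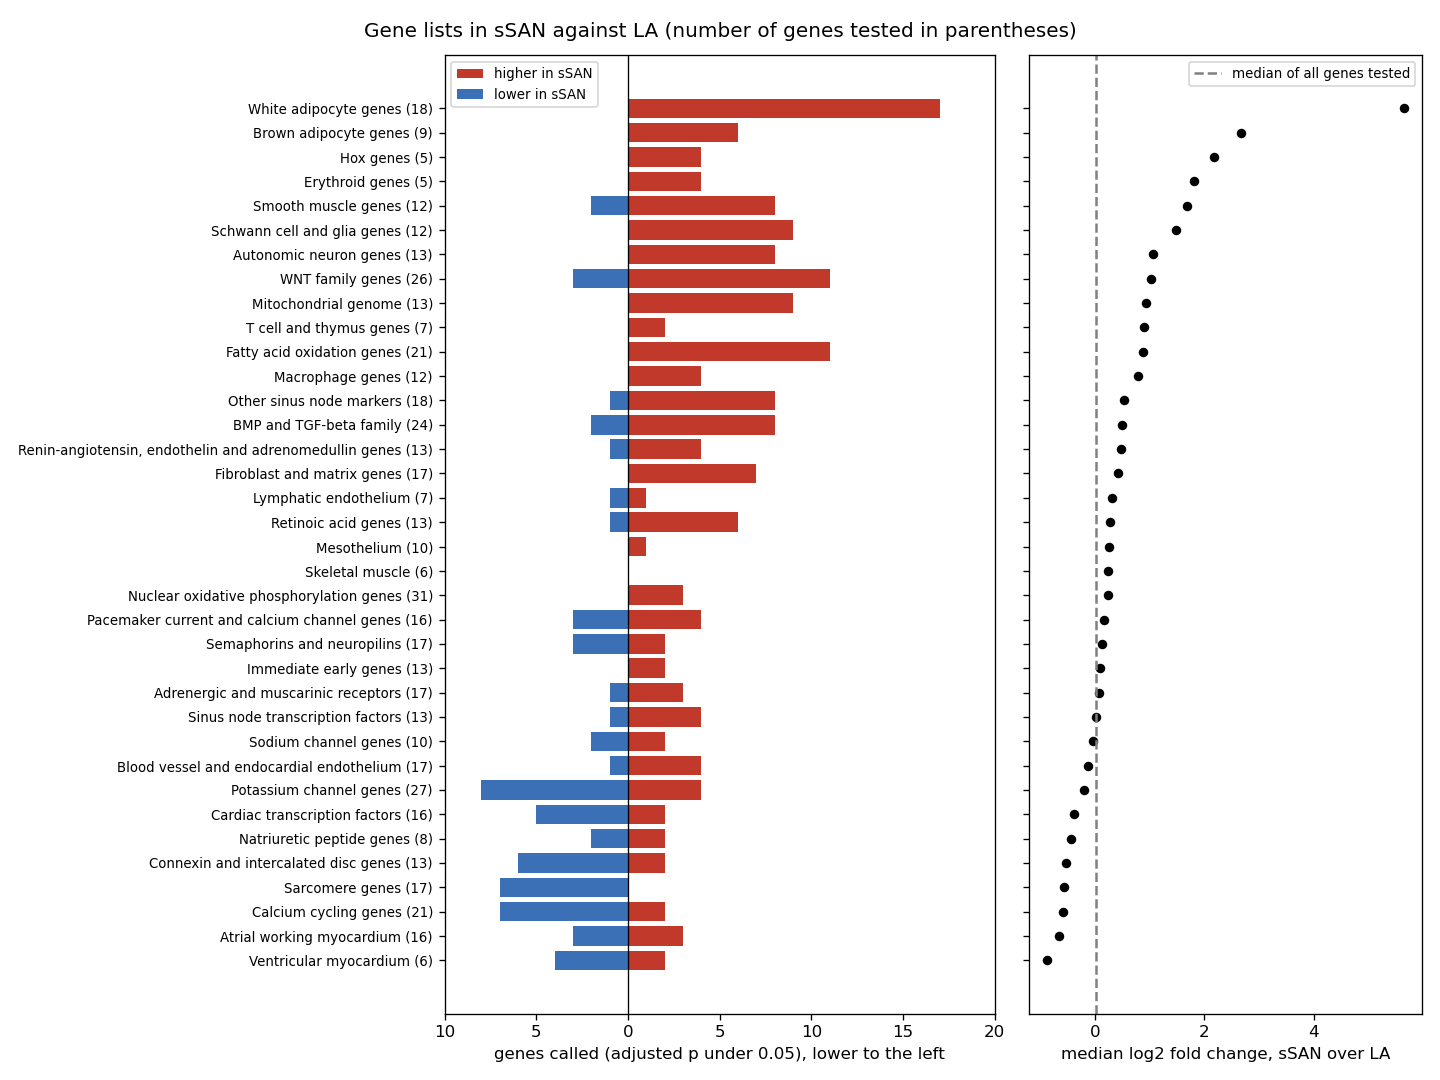
Gene lists in the sSAN against the LA, with the number of genes tested in parentheses. Left, genes called higher (to the right) and lower (to the left) per list; right, the median log2 fold change of each list, with the median of all genes tested (0.02) as a dashed line. White adipocyte genes reach 17 of 18 higher with a median of 5.66, and sarcomere genes have 7 of 17 lower and 0 higher. Over all genes tested, 11.8% were higher and 8.41% lower. Adipocyte genes with few LA counts passed the filter through the sSAN and could hardly be called lower.

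The sSAN and the LA lie on opposite sides of the heart, and genes of side were among those that differed. Bmp10, a bone morphogenetic protein of the atrial muscle, was at 668, 21.7, 356 and 234 CPM in the sSAN, 0.0855, 0.586, 0.184 and 0.0961 in the LA and 2571, 2005, 2045 and 1582 in the RA. The sSAN was above the LA in 4 of 4 rats (log2 fold change 10.33 ± 1.28 at adjusted p = 0.002) and below the RA (log2 fold change -2.66 at adjusted p = 0.041). The groups did not overlap in sSAN and LA, as in 3804 (27%) of all genes tested. In rat 2 the sSAN level was 21.7 CPM, and in that library the summed sarcomere genes and Nppa were also the lowest of the 4. Fitted on the 59-day rats alone, Bmp10 had an adjusted p of 0.13.

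**Figure D2:**
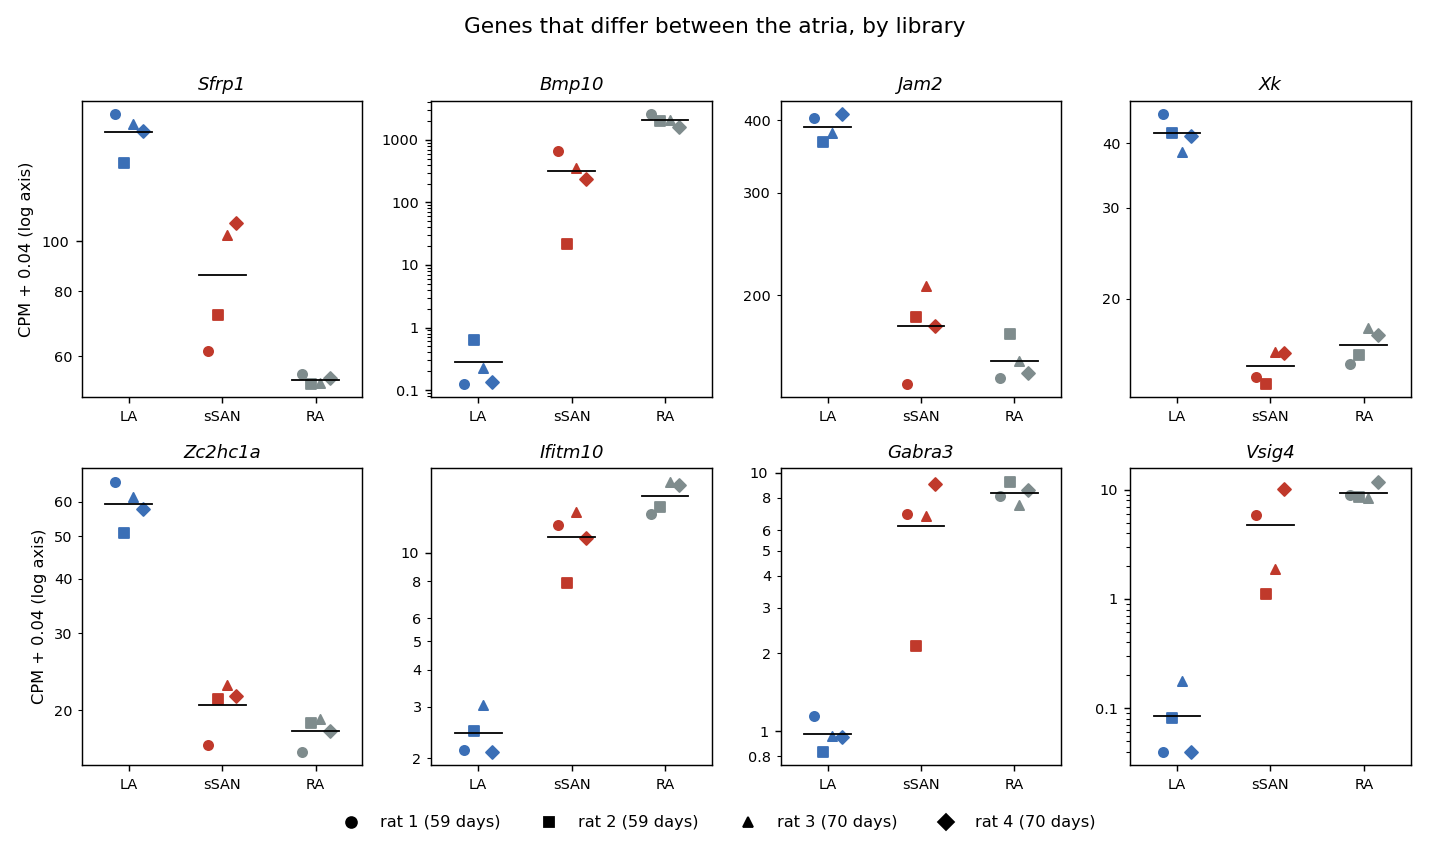
CPM plus 0.04 on log axes for 8 genes called between the atria, with 1 point per library, the shape giving the rat and the bar the mean of 4. Sfrp1 and Bmp10 lie between the atria in the sSAN. The Jam2, Xk and Zc2hc1a points of the sSAN lie near those of the RA and below every LA point. Over all genes tested, 27% did not overlap between sSAN and LA.

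Between LA and RA, 1201 of 13904 genes (8.64%) were called, 608 (4.37%) higher in the LA and 593 (4.26%) lower. With the rat as a block 2492 were called, and the calls between the atria used here are those without it. Among the genes with the smallest p in that comparison that were also called between sSAN and LA, several had sSAN levels close to those of the RA. The same LA libraries serve in both comparisons, so choosing genes called in both favors sSAN levels near the RA. Jam2, a junctional adhesion molecule, was at 141, 183, 207 and 177 CPM in the sSAN against 404, 366, 381 and 409.6 in the LA (log2 fold change -1.13 ± 0.13 at adjusted p = 0.00099), and against the RA its adjusted p was 0.24. Xk, a membrane transporter-like protein, was at 14.03, 13.6, 15.7 and 15.6 CPM in the sSAN against 45.5, 41.8, 38.5 and 41.3 in the LA (log2 fold change -1.49 at adjusted p = 0.00014). Zc2hc1a, which encodes a zinc finger protein, was at 20.5 ± 2.68 CPM in the sSAN against 59.1 ± 6.63 in the LA (log2 fold change -1.51 at adjusted p = 0.00048). All 3 were lower in the sSAN in 4 of 4 rats, with no overlap between the groups, as in 27% of all genes tested.

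On the right side, Ifitm10, an interferon-induced transmembrane family member, was at 12.4, 7.87, 13.7 and 11.2 CPM in the sSAN against 2.09, 2.43, 2.99 and 2.07 in the LA (log2 fold change 2.25 ± 0.21 at adjusted p = 0.00069). Gabra3, a GABA receptor subunit, was at 6.89, 2.102, 6.75 and 8.96 CPM in the sSAN against 1.11, 0.795, 0.9203 and 0.913 in the LA (log2 fold change 2.73 at adjusted p = 0.0027). Vsig4, a complement receptor best known from macrophages, was at 5.796, 1.08, 1.85 and 10.2 CPM in the sSAN against 0, 0.0419, 0.138 and 0 in the LA (log2 fold change 6.57 at adjusted p = 0.004). The sSAN libraries of rats 2 and 3 held the least Vsig4, and all 4 RA libraries held 8.31 CPM or more. Id3, an inhibitor of basic helix-loop-helix factors and a target of BMP signals, was at 77.6 ± 22.6 CPM in the sSAN against 40.5 ± 2.39 in the LA (log2 fold change 0.95 at adjusted p = 0.0093), and its relative Id1 at 64.1 ± 5.67 CPM in the sSAN against 27.7 ± 4.08 in the LA (log2 fold change 1.22 at adjusted p = 0.00076). Slc24a4, a sodium, calcium and potassium exchanger, and Cd300e, a receptor of myeloid cells, had log2 fold changes of 0.94 (at adjusted p = 0.043) and 0.83 (at adjusted p = 0.044). Both of those calls were lost without any 1 LA library or without sSAN replicate 1, 3 or 4, Slc24a4 with adjusted p up to 0.11 and Cd300e with up to 0.11. With the rat as a block their adjusted p was 0.055 and 0.052. Of the 12 genes of the macrophage list, 5 were called lower in the LA than in the RA, against 4.26% of all genes. Whether Vsig4 and Cd300e follow the side of the heart or macrophage transcripts was not tested.

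Dsc2, a desmosomal cadherin of the intercalated disc, had the smallest p of its list and was also a gene of side. It was at 22.4, 19.8, 23 and 26.8 CPM in the sSAN, 62.04, 73.2, 52.6 and 63.9 in the LA and 25.01, 31.3, 25.1 and 24.9 in the RA (log2 fold change -1.44 ± 0.13 at adjusted p = 5e-04). Against the RA its log2 fold change was -0.19 (at adjusted p = 0.29). Htr2a, a serotonin receptor, showed the same order, with 8.501 ± 1.68 CPM in the sSAN, 46.5 ± 5.81 in the LA and 9.49 ± 2.99 in the RA (log2 fold change -2.44 at adjusted p = 0.00014). Nrg1, the growth factor neuregulin, was at 2.68 ± 1.11, 11.8 ± 3.62 and 4.27 ± 1.07 CPM in that order (log2 fold change -2.14 at adjusted p = 0.0027). For these 3 genes LA over RA was called as well, at adjusted p of 4e-05, 0.00048 and 0.0029.

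A set of 29 genes was called in opposite directions against the 2 atria. Such calls put the sSAN level between those of LA and RA, so this order follows from how the set was chosen. For 23 the LA was above the RA and for 6 it was below, and LA over RA was called for all 29. Besides Bmp10 and Slc24a4 the set held Sfrp1, a secreted inhibitor of WNT signals, at 86.2 ± 23.05 CPM in the sSAN, 162 ± 14.6 in the LA and 54.02 ± 1.11 in the RA. It held Rapgef4, an exchange factor activated by cyclic AMP, at 8.02 ± 0.536, 14.02 ± 0.807 and 4.48 ± 0.371 CPM. Shmt2, an enzyme of mitochondrial one-carbon metabolism, was at 48.8 ± 2.03, 84.9 ± 9.15 and 38.4 ± 3.23 CPM. Adamts8, a matrix protease chosen here after its values were seen, was at 20.9 ± 8.83, 81.2 ± 14.8 and 4.47 ± 1.78 CPM. With 1 library left out, the set numbered 14 to 30.

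Of the left-right axis genes of the embryo, Bmp10 was called higher. Cited2, a transcriptional coactivator of the same list, was at 41.4 ± 10.3 CPM in the sSAN against 47.7 ± 8.17 in the LA (log2 fold change -0.19 at adjusted p = 0.5).

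Shox2, a homeobox factor that the node needs to form (chromosome 2, 164118191 to 164126783), was at 32.2, 28.8, 44.9 and 60.3 CPM in the sSAN against 1.03, 2.13, 1.38 and 1.78 in the LA (log2 fold change 4.72 ± 0.31 at adjusted p = 0.00015). Every sSAN library was above every LA library, and the groups did not overlap in 27% of all genes tested. Tbx3, a repressor of the working atrial program, was at 12.9, 21.3, 20.6 and 20.9 CPM in the sSAN against 2.22, 3.18, 4.05 and 3.46 in the LA (log2 fold change 2.56 ± 0.23 at adjusted p = 5e-04). Isl1, a LIM homeobox factor of the node and of cardiac progenitors, had 84 counts over the 4 sSAN libraries and 0 over the 4 LA libraries, at least 31.4-fold higher when the LA is set at 3 counts over its 4 libraries. Such bounds and the counting intervals of other genes cover counting error only. Meis2, a homeobox cofactor, was at 19.4, 21.7, 23 and 26.6 CPM in the sSAN against 8.89, 7.87, 11.6 and 7.98 in the LA (log2 fold change 1.33 at adjusted p = 0.0012).

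Of 13 sinus node transcription factors these 4 were called higher and Tbx5 lower, against 11.8% and 8.41% of all genes. Tbx5, a T-box factor that node and atrium share, was at 131 ± 32.9 CPM in the sSAN against 197 ± 5.997 in the LA (log2 fold change -0.58 at adjusted p = 0.04), and that call was lost without sSAN replicate 1 or any LA library. The other 8 had an adjusted p above 0.05. The number lower depended on the fit: DESeq2 called 2, the 59-day rats alone gave 4, and leaving out 1 library gave 0 to 3 (3 without sSAN replicate 4, and 0 without sSAN replicate 1 or any LA library). Tbx18, which marks the embryonic origin of the node head, was at 20.3 ± 4.73 CPM in the sSAN against 18.1 ± 1.11 in the LA, Gata6 at 52.5 ± 14.02 CPM in the sSAN against 73.5 ± 5.897 in the LA, and Nr2f2, a factor of atrial identity, at 50.6 ± 6.84 CPM in the sSAN against 62.3 ± 4.04 in the LA. Hand2, Foxp2, Meis1, Rfx4 and Zfp536 had log2 fold changes of -0.72, 0.01, -0.41, -0.47 and 0.41. With the rat as a block Meis1 was called lower (adjusted p = 0.038). Shox2, Tbx3, Isl1 and Meis2 were called higher against the RA as well, and none of Shox2, Tbx3 and Meis2 was called between the atria, where Isl1 was not tested.

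**Figure D3:**
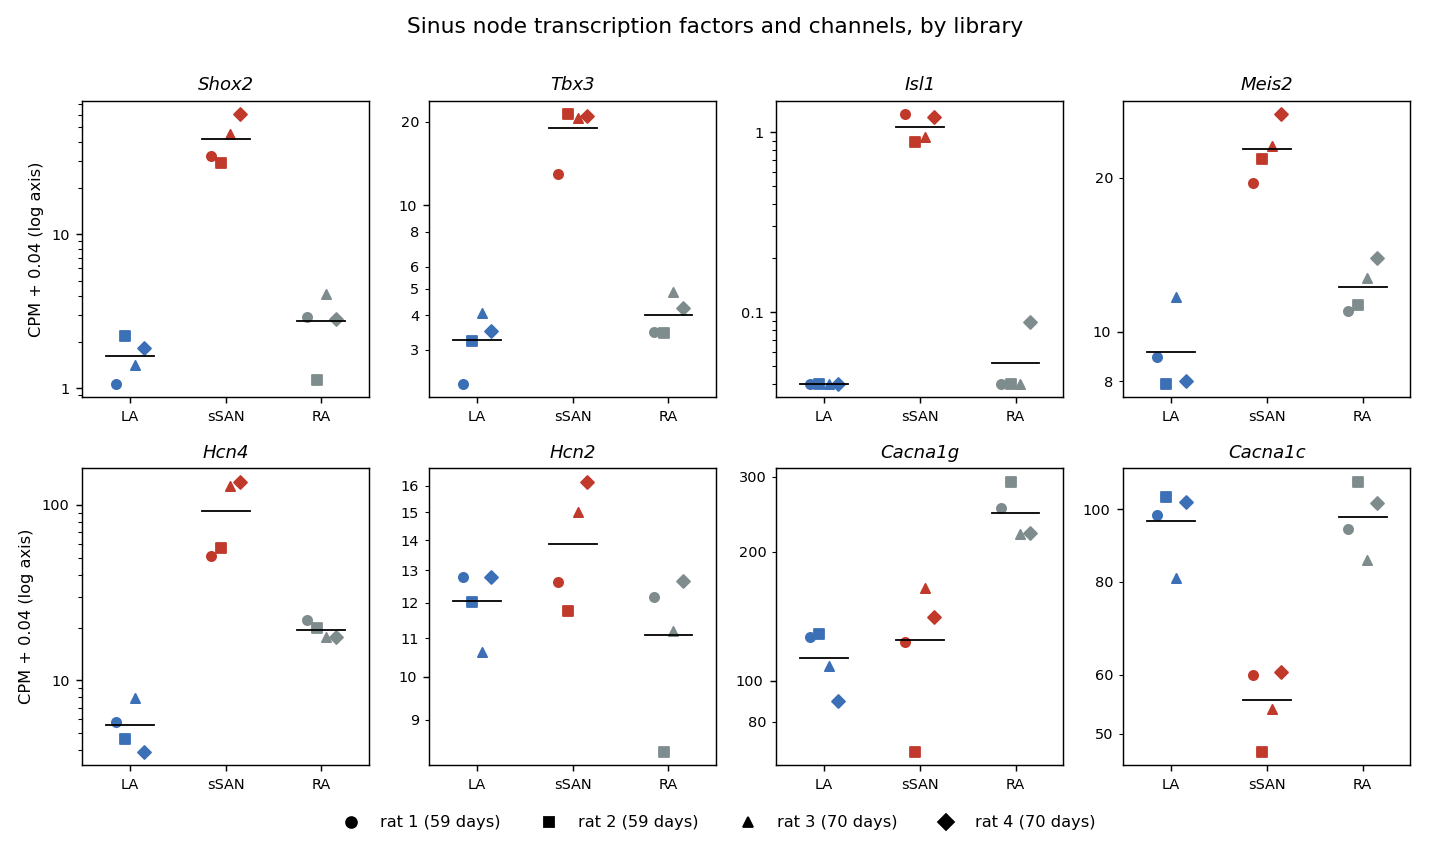
CPM plus 0.04 on log axes for 4 node transcription factors and 4 channel genes, with 1 point per library and the mean of 4 as a bar. Shox2, Tbx3, Isl1, Meis2 and Hcn4 have each sSAN point above each LA and RA point. Hcn2 and Cacna1g overlap with the LA, and Cacna1c is below both atria. Over all genes tested, 27% did not overlap between sSAN and LA.

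The HCN channels carry the pacemaker current. Hcn4 (chromosome 8, 63600663 to 63639654), the main isoform of the node, was at 50.9, 56.6, 129 and 135 CPM in the sSAN against 5.77, 4.604, 7.91 and 3.89 in the LA (log2 fold change 4.08 ± 0.42 at adjusted p = 0.0011). The sSAN libraries of the 70-day rats were above those of the 59-day rats, and the test of that difference in fold gave an adjusted p of 0.23. The RA held more Hcn4 than the LA, at 22.01, 19.8, 17.8 and 17.7 CPM (log2 fold change -1.80 at adjusted p = 0.00018 for LA over RA). Hcn2 was at 12.6, 11.7, 14.9 and 16.1 CPM in the sSAN against 12.7, 11.97, 10.6 and 12.7 in the LA (log2 fold change 0.22 at adjusted p = 0.27). Hcn3 had next to no counts and did not pass the filter. Per length, the deposited FPKM values put Hcn4 in the sSAN at 15.9 ± 8.66 and Hcn2 at 5.08 ± 1.16. In the LA Hcn2 was at 4.90 ± 0.388 and Hcn4 at 1.04 ± 0.338 FPKM.

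Of 16 genes of the pacemaker current and calcium channel list that were tested, 4 were higher and 3 lower. Cacna1c, the pore of the main cardiac L-type channel, was at 59.9, 47.3, 54.04 and 60.5 CPM in the sSAN against 98.2, 104, 80.9 and 102 in the LA (log2 fold change -0.78 ± 0.11 at adjusted p = 0.0023). Its partners Cacna2d1 and Cacnb2 were lower as well, at a log2 fold change of -1.04 (at adjusted p = 0.0034) and -0.62 (at adjusted p = 0.033), the latter lost without sSAN replicate 1 or LA replicate 1, 3 or 4. Cacna1a, a neuronal P/Q-type pore, was higher at 12.3, 22.4, 15.6 and 20.9 CPM in the sSAN against 5.21, 8.75, 6.72 and 6.87 in the LA (log2 fold change 1.38 at adjusted p = 0.0037), and Cacnb1, a beta subunit, had a log2 fold change of 1.19 (at adjusted p = 0.025) that was lost without sSAN replicate 2 or 4 or LA replicate 1, 3 or 4.

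Cacna1d and Cacna1g, channel pores known from pacemaker cells, were not called against the LA. Cacna1d, the L-type pore that opens at low voltage, was at 19.1, 8.65, 17.1 and 16.4 CPM in the sSAN against 25.9, 30.8, 25.5 and 19.3 in the LA (log2 fold change -0.71 at adjusted p = 0.058), and DESeq2 called it lower at an adjusted p of 0.017. Cacna1g, the T-type pore of the node, was at 123, 68.2, 165 and 141 CPM in the sSAN against 126, 128, 108 and 89.4 in the LA (log2 fold change 0.15 at adjusted p = 0.7). A fit to the 70-day rats only called it higher by edgeR (adjusted p = 0.028). The RA was higher than the LA in Cacna1g, at 254, 292, 220.4 and 221 CPM (log2 fold change -1.13 at adjusted p = 0.00069), and in Cacna2d2. Both genes were called lower in the sSAN against the RA and not against the LA. Cacna1h, Cacna2d2, Cacna2d3, Cacnb3, Cacng4 and Cacng7 had log2 fold changes against the LA of -0.60, 0.21, 0.36, 0.15, -0.33 and -0.25 with adjusted p of 0.28 or more.

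Of 18 other sinus node markers, 8 were higher and 1 lower, with 5 higher without sSAN replicate 4 or LA replicate 1, 3 or 4. Rec114, a meiotic recombination gene, was at 5.53, 4.02, 9.998 and 13.6 CPM in the sSAN against 1.32, 1.004, 0.6903 and 0.481 in the LA (log2 fold change 3.24 ± 0.45 at adjusted p = 0.0022), and its fold was larger in the 70-day rats by 2.28 on the log2 scale (adjusted p = 0.041 for the interaction). Cpne5, a calcium-dependent membrane-binding protein, was at 3.27, 4.68, 8.698 and 13.2 CPM in the sSAN against 0.684, 0.251, 1.01 and 0.385 in the LA (log2 fold change 3.68 at adjusted p = 0.0031). Gjd3, a connexin of low conductance, was at 2.14, 2.52, 3.599 and 4.605 CPM in the sSAN against 0.513, 0.544, 0.6903 and 0.961 in the LA (log2 fold change 2.26 at adjusted p = 0.0027). Smoc2, a matrix protein, was higher by 0.54 on the log2 scale against the LA (adjusted p = 0.028) and by 2.79 against the RA (adjusted p = 0.00028), and the LA held more of it than the RA. Etv1, a factor of fast-conducting atrial muscle, was lower at 60.97, 43.7, 74.3 and 69.1 CPM in the sSAN against 149, 140.4, 133 and 136 in the LA (log2 fold change -1.16 at adjusted p = 0.0016). Without sSAN replicate 4 or LA replicate 1, 3 or 4, 5 of the markers were called higher.

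Of 17 sarcomere genes tested, 7 were lower and 0 higher (DESeq2 called 9 lower and 0 higher, and 10 had an unadjusted p under 0.05), with a list median of -0.58 on the log2 scale. The 59-day rats alone gave 16 lower and the 70-day rats alone 5. With Adipoq as a linear covariate 4 were lower and the list median was 0.03. Myom2, a protein of the M-band, was at 567, 498, 883 and 1090.3 CPM in the sSAN against 2401, 2814, 2837 and 3854 in the LA (log2 fold change -1.96 ± 0.27 at adjusted p = 0.0021). Nebl, which ties actin to the Z-disc, was at 313, 252, 222 and 309.9 CPM in the sSAN against 790.2, 776, 653 and 751 in the LA (log2 fold change -1.43 ± 0.13 at adjusted p = 0.00071). The groups overlapped in neither gene, and they did not overlap in 27% of all genes tested. Myom1 and Actn2, a second M-band protein and the Z-disc alpha-actinin, had log2 fold changes of -1.01 (at adjusted p = 0.0041) and -1.01 (at adjusted p = 0.0066). Myh6, the fast atrial myosin, was at 11572, 7154, 12820.0 and 13926 CPM in the sSAN against 20481, 21850.0, 20523 and 25363 in the LA (log2 fold change -0.94 at adjusted p = 0.019), a call that was lost without LA replicate 2 or 4.

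**Figure D4:**
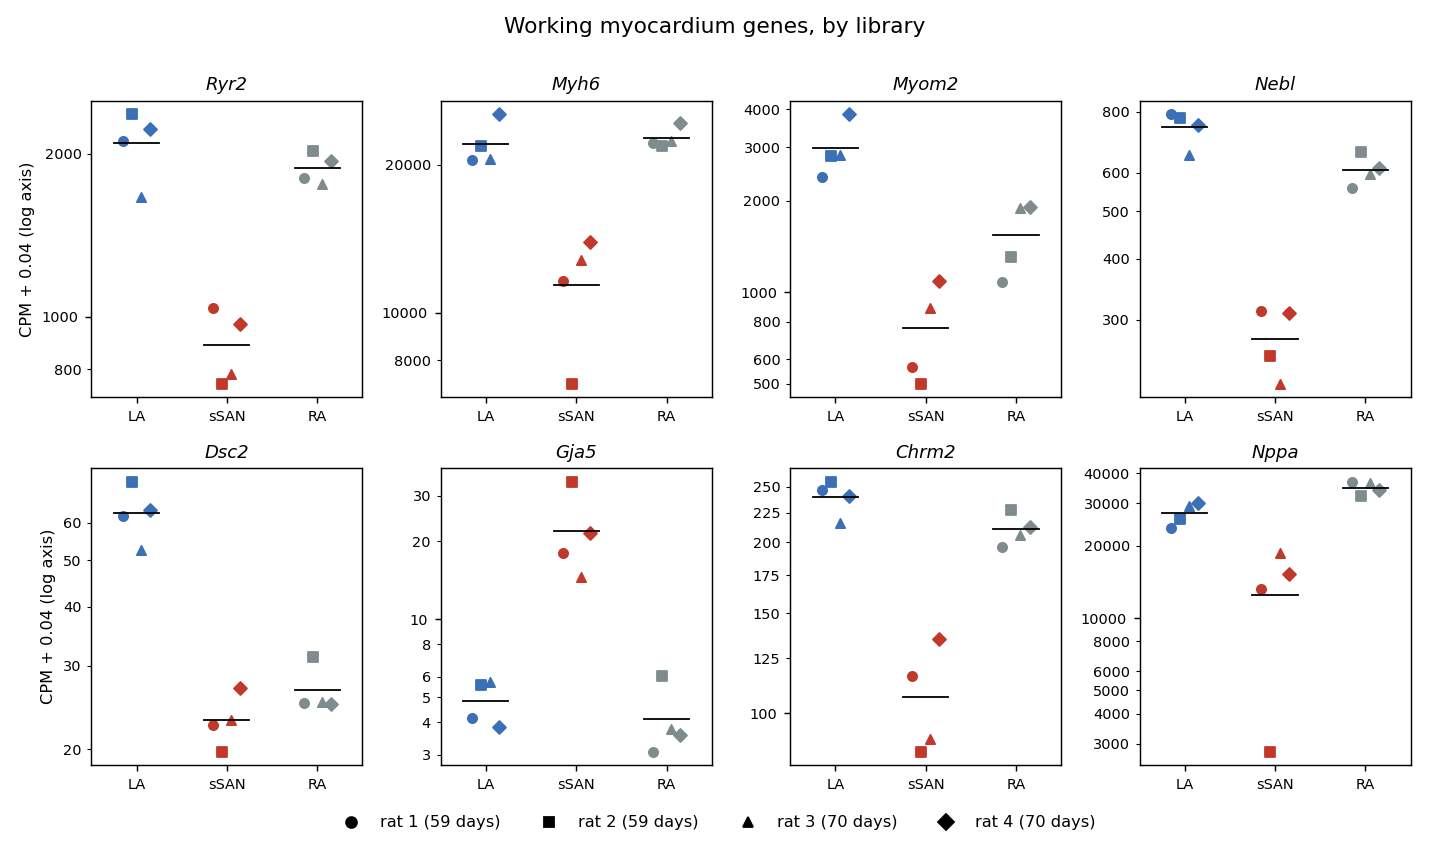
CPM plus 0.04 on log axes for 8 genes of working muscle, conduction and its control, with 1 point per library and the mean of 4 as a bar. Every sSAN point of Ryr2, Myh6, Myom2, Nebl, Dsc2, Chrm2 and Nppa lies below every LA point, and every sSAN point of Gja5 lies above. Over all genes tested, 27% did not overlap between sSAN and LA.

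Of 21 calcium cycling genes, 7 were lower and 2 higher, with a median of -0.59. Leaving out 1 library gave 4 to 12 lower, with 12 without sSAN replicate 3 and 4 without LA replicate 1, 2 or 3. With Adipoq as a linear covariate 2 were lower and 4 higher, and the list median was -0.09. Ryr2, the calcium release channel of the sarcoplasmic reticulum, was at 1038, 751, 783 and 969 CPM in the sSAN against 2108, 2366, 1666 and 2220.0 in the LA (log2 fold change -1.23 ± 0.16 at adjusted p = 0.0016). Camk2d, the main cardiac calmodulin-dependent kinase, was at 102, 95.3, 109 and 98.02 CPM in the sSAN against 184, 167, 192 and 185 in the LA (log2 fold change -0.83 at adjusted p = 0.00077). Trdn, the triadin that anchors calsequestrin to Ryr2, was lower (log2 fold change -0.82 at adjusted p = 0.013).

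Of 13 connexin and intercalated disc genes, 6 were lower and 2 higher. The 2 that rose were the connexins Gjd3 and Gja5. Gja5, a connexin of fast conduction that arteries also express, was at 18.04, 33.9, 14.5 and 21.4 CPM in the sSAN against 4.102, 5.52, 5.71 and 3.798 in the LA (log2 fold change 2.21 ± 0.27 at adjusted p = 0.0014). Cxadr, an adhesion protein of the disc, was lower at 16 ± 3.01 CPM in the sSAN against 31.6 ± 2.33 in the LA (log2 fold change -0.97 at adjusted p = 0.0021). Ank2, the ankyrin that places channels and exchangers in the membrane, was lower as well (log2 fold change -1.02 at adjusted p = 0.0013), as was Akap13, a kinase anchor (log2 fold change -0.79 at adjusted p = 0.0013).

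Of 27 potassium channel genes, 8 were lower and 4 higher, against 8.41% and 11.8% of all genes. Without LA replicate 1, 2 or 4, 0 were called higher, and without sSAN replicate 1 or 2 or LA replicate 3, 1 was. Without sSAN replicate 1 or any 1 LA library, 4 or 5 were called lower. Kcnj2, an inward rectifier that holds the resting potential of working muscle, was at 8.11, 4.38, 6.898 and 7.74 CPM in the sSAN against 14.6, 14.4, 15.2 and 14.9 in the LA (log2 fold change -1.11 ± 0.18 at adjusted p = 0.0037). Its relative Kcnj12 was lower, with a log2 fold change of -0.79 (at adjusted p = 0.014), and Kcnd3, a pore of the transient outward current, at a log2 fold change of -0.68 (at adjusted p = 0.0051). Kcnk3, a leak channel, was higher, with a log2 fold change of 0.89 (at adjusted p = 0.017), and that call was lost without LA replicate 1, 2 or 4. Of 10 sodium channel genes 2 were higher and 2 lower. The number higher was 1 without sSAN replicate 2 or LA replicate 1, 2 or 4, the number lower was 1 without sSAN replicate 1, 3 or 4 or LA replicate 2 or 4, and without rat 2 the numbers were 0 and 1. Scn4b, a beta subunit, was at 13.1, 16.5, 19.6 and 31.5 CPM in the sSAN against 3.12, 7.53, 4.23 and 8.89 in the LA (log2 fold change 1.78 at adjusted p = 0.013), and Scn1a, a neuronal pore that is also found in the node, was at 3.27, 1.201, 2.65 and 2.94 CPM in the sSAN against 9.44, 5.99, 8.84 and 6.63 in the LA (log2 fold change -1.60 at adjusted p = 0.0062).

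Of 16 genes of the atrial working myocardium, 3 were lower and 3 higher, with a median of -0.66, and the number lower ran from 0 (without LA replicate 2 or 4) to 5 (without sSAN replicate 2 or 3). Nppa, the atrial natriuretic peptide, was at 13226, 2784, 18640.0 and 15298 CPM in the sSAN against 23741, 25716, 29306 and 30253 in the LA. Each sSAN library was below each LA library, and the groups did not overlap in 27% of all genes tested. The adjusted p of Nppa was 0.12 at a log2 fold change of -1.11 ± 0.47. Corin, the protease that activates this peptide, was at 206, 101, 193 and 214 CPM in the sSAN against 416, 383, 437 and 421 in the LA (log2 fold change -1.20 at adjusted p = 0.0051). Npr3, the clearance receptor, was lower, with a log2 fold change of -0.61 (at adjusted p = 0.011). Nppb passed no test (log2 fold change -1.03 at adjusted p = 0.25).

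Of 16 cardiac transcription factors, 5 were lower and 2 higher. Mef2a and Mef2c, which drive muscle genes, were lower, with log2 fold changes of -0.66 and -0.71 (adjusted p = 0.0013 and 0.0071), and Myocd, a coactivator of heart and smooth muscle genes, was at a log2 fold change of -0.95 (at adjusted p = 0.0022). Tbx20, a T-box factor of working muscle, was at a log2 fold change of -0.70 (at adjusted p = 0.023) and lost its call without LA replicate 1, 2 or 4. Prrx1, a homeobox factor of mesenchyme, was higher at 15.2 ± 3.53 CPM in the sSAN against 6.33 ± 0.847 in the LA (log2 fold change 1.27 at adjusted p = 0.0024). Of 6 ventricular myocardium genes 4 were lower and 2 higher. Myh7, the slow myosin, was lower, with a log2 fold change of -0.96 (at adjusted p = 0.01), and Myl2, the ventricular light chain, was at 2.83, 1.98, 6.15 and 10.6 CPM in the sSAN against 0, 0.0419, 0 and 0.144 (log2 fold change 6.75 at adjusted p = 0.0017).

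The adrenergic and muscarinic receptor list also holds Npy1r, which belongs to neither class. Of its 17 genes tested, 3 were higher and 1 lower, against 11.8% and 8.41% of all genes. Chrm2, the muscarinic receptor through which the vagus slows the heart, was at 116, 85.7, 90.2 and 135 CPM in the sSAN against 246, 255, 216 and 241 in the LA (log2 fold change -1.15 ± 0.15 at adjusted p = 0.0015). Adrb3, a receptor known from fat cells, was at 36.8, 48.5, 12.9 and 18.9 CPM in the sSAN against 0.256, 0, 0 and 0 in the LA (log2 fold change 8.67 at adjusted p = 0.00087). Adra1d, an alpha receptor of vessels, was at 15.03, 16.8, 7.398 and 5.58 CPM in the sSAN against 0.897, 1.38, 1.29 and 1.54 in the LA (log2 fold change 3.14 at adjusted p = 0.0014). Npy1r, a receptor for neuropeptide Y, was higher, with a log2 fold change of 1.63 (at adjusted p = 0.018), a call lost without LA replicate 1, 2 or 3.

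Of 13 neuron genes tested of 25 listed, 8 were higher and 0 lower (DESeq2 called 12 higher and 1 lower, and 9 had an unadjusted p under 0.05), and 5 were higher without LA replicate 2 or 4. Stmn2, Gap43, Th and Chrnb4 of the 8 had 31, 38, 0 and 2 counts over the 4 LA libraries and passed the filter through the sSAN. Th, the rate-limiting enzyme of catecholamine synthesis, had 79 counts over the 4 sSAN libraries and 0 over the LA, at least 29.6-fold higher against 3 counts over the 4 LA libraries. Chrnb4, a nicotinic receptor subunit of ganglia, had 242 counts against 2, a ratio of 135.8 (95% counting interval 37.2 to 1128). Gap43, a growth cone protein, was at 2.22, 4.26, 2.25 and 4.26 CPM in the sSAN against 0.641, 0.251, 0.4602 and 0.337 in the LA (log2 fold change 2.93 at adjusted p = 0.0017). Uchl1, a neuronal ubiquitin hydrolase, was at 2.91 ± 0.605 CPM in the sSAN against 0.875 ± 0.186 in the LA (log2 fold change 1.74 at adjusted p = 0.003). Ddc, the next enzyme of catecholamine synthesis after Th, was at 50.6, 46.5, 99.1 and 102 CPM in the sSAN against 32.9, 38.7, 35.02 and 37.8 in the LA (log2 fold change 1.06 at adjusted p = 0.022), lost without any 1 LA library.

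Of 12 Schwann cell and glia genes, 9 were higher and 0 lower (DESeq2 called 10 higher and 0 lower, and 10 had an unadjusted p under 0.05), with a median of 1.48. S100b, a glial calcium-binding protein that fat cells also express, was at 117, 95.7, 24.4 and 39.8 CPM in the sSAN against 2.22, 1.34, 3.08 and 1.54 in the LA (log2 fold change 5.09 at adjusted p = 0.0016). Pmp22, a peripheral myelin protein, was at 229.6, 221, 120.4 and 273 CPM in the sSAN against 75.9, 71.4, 76.2 and 72.3 in the LA (log2 fold change 1.52 ± 0.21 at adjusted p = 0.0021), lowest of the sSAN in rat 3. Sox10, the glial transcription factor, was at a log2 fold change of 1.12 (at adjusted p = 0.015). The summed level of the list was 924, 851, 249.6 and 1043 CPM in the sSAN against 185, 172, 163 and 162 in the LA. In the 70-day rats alone, which include rat 3, 3 of the genes were called.

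Fat cell genes had the largest list median of the comparison. Of 18 white adipocyte genes 17 were higher and 0 lower (17 and 0 by DESeq2, and 18 had an unadjusted p under 0.05), with a median of 5.66, and 14 were called with Adipoq as a linear covariate. Members with few LA counts, such as Pck1, passed the filter through the sSAN and could hardly be called lower. Their summed level was 20220.0, 18975, 6318 and 4123 CPM in the sSAN against 1808, 1994, 1952 and 2219 in the LA. Adipoq, named after its values were seen, was at 957, 1038, 263 and 207 CPM in the sSAN against 4.102, 0, 0.09203 and 0 in the LA. In the sSAN the 59-day rats held more fat transcripts than the 70-day rats, whereas the LA sums of the ages overlapped. Every sSAN sum was above every LA sum. The part of these transcripts in other results was not tested beyond the covariate.

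**Figure D5:**
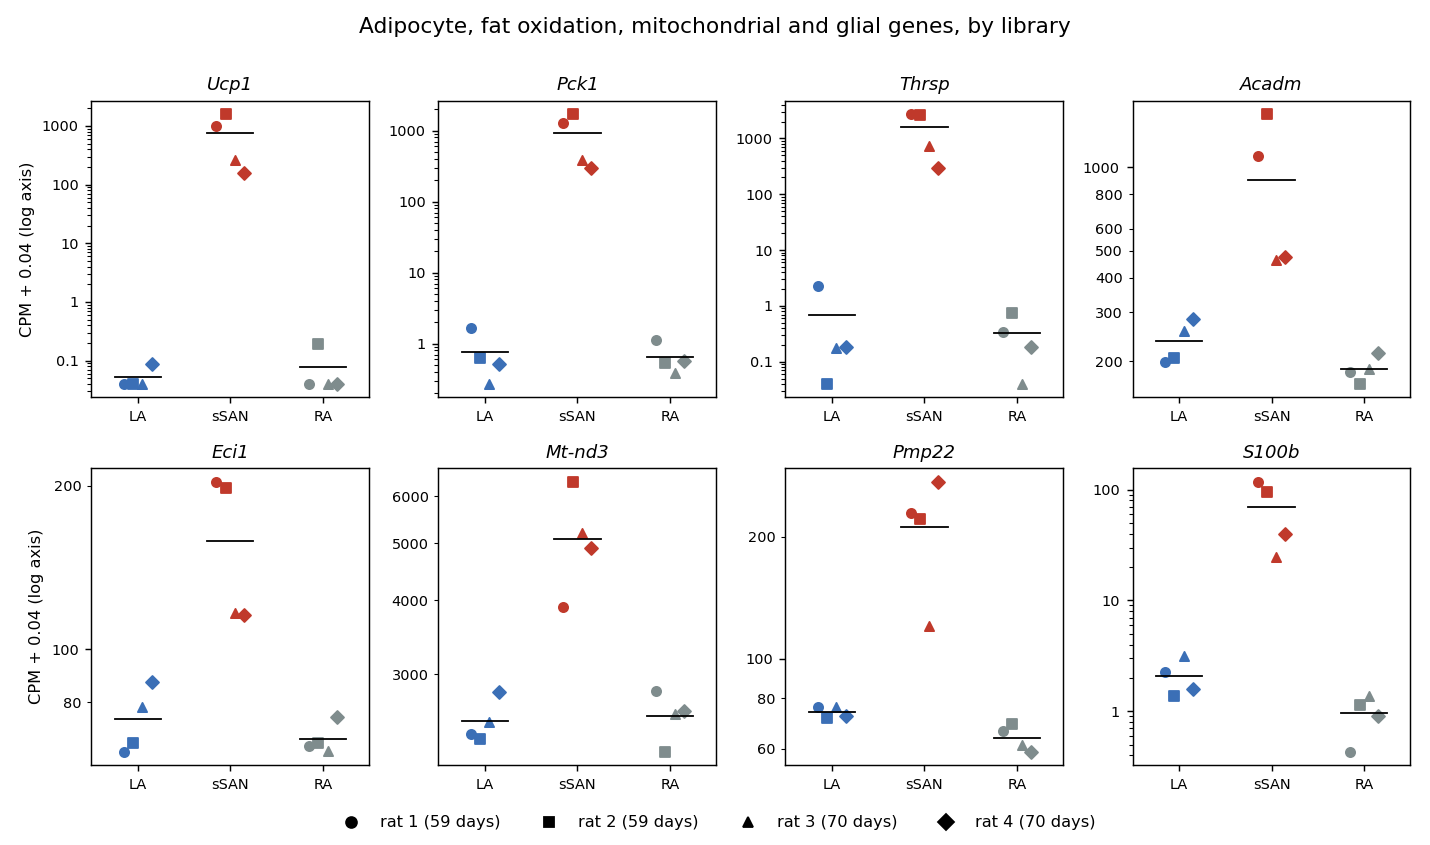
CPM plus 0.04 on log axes for genes of fat cells (Ucp1, Pck1, Thrsp), fat oxidation (Acadm, Eci1), the mitochondrial genome (Mt-nd3) and glia (Pmp22, S100b), with 1 point per library, the shape giving the rat and the bar the mean of 4. The sSAN points of the first 5 are higher in rats 1 and 2 than in rats 3 and 4, and Pmp22 of rat 3 is the lowest sSAN point at 120.4 CPM.

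Pck1, the first committed enzyme of glyceroneogenesis in fat, was at 1266, 1698, 387 and 300.3 CPM in the sSAN against 1.62, 0.586, 0.2301 and 0.481 in the LA (log2 fold change 10.27 ± 0.92 at adjusted p = 0.00077). Cebpa, a transcription factor of fat cell differentiation, was at 225, 281, 109.8 and 63.8 CPM in the sSAN against 2.69, 2.01, 2.99 and 2.55 in the LA (log2 fold change 6.06 at adjusted p = 0.00077). Pnpla2, the triglyceride lipase, was at 24.8, 42.99, 14.3 and 23.3 CPM in the sSAN against 2.14, 1.38, 2.39 and 2.02 in the LA (log2 fold change 3.74 at adjusted p = 0.00072). None of these overlapped between the groups, as was so for 27% of all genes tested. Of 9 brown adipocyte genes tested, 6 were higher and 0 lower (6 and 0 by DESeq2, and 6 had an unadjusted p under 0.05). Some, such as Ucp1 and Slc36a2, had next to no LA counts, passed the filter through the sSAN and could hardly be called lower. Ucp1, the uncoupling protein that lets brown fat make heat, had 57399 counts in the sSAN and 1 in the LA, and stood at 979, 1585, 264 and 159 CPM in the 4 sSAN libraries. Slc36a2, an amino acid transporter that marks brown fat, was at 64.1, 121, 21.7 and 18.8 CPM in the sSAN against 0.214, 0.0419, 0 and 0 in the LA (log2 fold change 9.61 at adjusted p = 0.0015). Prdm16, a coregulator of brown fat identity, was at a log2 fold change of 2.67 (at adjusted p = 0.0034).

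Of 21 fatty acid oxidation genes, 11 were higher and 0 lower (16 and 1 by DESeq2, and 19 had an unadjusted p under 0.05). This count depended on the rats: with rat as a block 3 were higher, the 59-day rats alone gave 20, the 70-day rats alone 3, and leaving out 1 library 4 (without sSAN replicate 1 or LA replicate 1 or 2) to 17 (without sSAN replicate 3). With Adipoq as a linear covariate 0 were called. Acadm, the medium-chain acyl-CoA dehydrogenase, was at 1099, 1556, 462 and 475 CPM in the sSAN against 198, 205, 258 and 284 in the LA (log2 fold change 1.94 ± 0.40 at adjusted p = 0.012), with an adjusted p of 0.054 with the rat as a block. Acaa2, the last enzyme of the cycle, was at 657, 855, 253 and 294 CPM in the sSAN against 120.2, 83.4, 112 and 175 in the LA (log2 fold change 2.08 at adjusted p = 0.012, or 0.057 as adjusted p with the block). Eci1, an enoyl-CoA isomerase, was at 203, 199, 117 and 116 CPM in the sSAN against 64.9, 67.3, 78.4 and 86.97 in the LA (log2 fold change 1.10 at adjusted p = 0.0077).

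All 13 protein genes of the mitochondrial genome were tested, and 9 were higher and 0 lower (13 and 0 by DESeq2, and 13 had an unadjusted p under 0.05). With the block 4 were higher, and leaving out 1 library gave 1 (without LA replicate 2) to 12 (without sSAN replicate 4). Mt-nd3, a subunit of complex I, was at 3898, 6351, 5207 and 4899 CPM in the sSAN against 2376, 2329, 2488 and 2796 in the LA (log2 fold change 1.04 ± 0.17 at adjusted p = 0.0043). Mt-nd2 was at 20163, 43450.0, 21483 and 14523 CPM in the sSAN against 11081, 8671, 8723 and 10311 in the LA (log2 fold change 1.37 at adjusted p = 0.018), lost without LA replicate 2 or 3. The nuclear genes of oxidative phosphorylation had a median of 0.23, with 3 of 31 higher (Cyc1, Sdhb and Cox4i1), against 11.8% of all genes. With the block the adjusted p of Sdhb was 0.051 and that of Cox4i1 0.058. Those 3 ranged down to 0 calls when sSAN replicate 1 or LA replicate 1, 2 or 3 was left out.

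Of 12 smooth muscle genes 8 were higher and 2 lower, Myocd among the latter. Cnn1, the calponin of contractile smooth muscle, was at 13.03, 14.1, 17.8 and 23.4 CPM in the sSAN against 1.62, 0.921, 1.61 and 1.78 in the LA (log2 fold change 3.54 ± 0.26 at adjusted p = 0.00028). Tagln was at 82.8, 172, 169.6 and 196 CPM in the sSAN against 21.1, 21.5, 28.6 and 28.7 in the LA (log2 fold change 2.65 at adjusted p = 0.00077), Acta2, smooth muscle actin, at 114, 187, 236 and 239.6 CPM in the sSAN against 50.5, 42.02, 44.7 and 46.97 in the LA (log2 fold change 2.09 at adjusted p = 0.00087), and Lmod1, leiomodin, at 47.5, 94.6, 40.7 and 47.2 CPM in the sSAN against 7.39, 5.61, 8.42 and 7.403 in the LA (log2 fold change 3.01 at adjusted p = 0.00076). All 4 were higher in 4 of 4 rats without overlap, as 27% of all genes tested did not overlap. These 4 were chosen by the smallest p, which favors such groups.

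Of 17 fibroblast and matrix genes 7 were higher and 0 lower (7 and 0 by DESeq2, and 8 had an unadjusted p under 0.05). Pi16, a marker of a fibroblast subset, was at 215, 209.9, 123 and 185 CPM in the sSAN, 63.3, 72.6, 51.4 and 57.4 in the LA and 28, 23.9, 21.7 and 26.2 in the RA (log2 fold change 1.59 at adjusted p = 0.001 for sSAN over LA). Thy1, a surface protein of fibroblasts and neurons, was at a log2 fold change of 1.88 (at adjusted p = 0.0086), Mfap5, a microfibril protein, at a log2 fold change of 0.69 (at adjusted p = 0.012) and Fbln2, fibulin, at a log2 fold change of 0.41 (at adjusted p = 0.015), the last lost without LA replicate 2. Of 17 vessel genes 4 were higher and 1 lower. Kdr, the main receptor for vascular endothelial growth factor, was at 112 ± 18.3 CPM in the sSAN, 62.7 ± 3.19 in the LA and 105 ± 11.7 in the RA (log2 fold change 0.85 at adjusted p = 0.0023 against the LA and 0.11 (at adjusted p = 0.61) against the RA). Sox17, a factor of arterial endothelium, was at a log2 fold change of 0.80 (at adjusted p = 0.006).

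Counts of immune and blood genes varied with the libraries used. Of 12 macrophage genes 4 were higher and 0 lower (6 and 0 by DESeq2, and 8 had an unadjusted p under 0.05), with 12 without sSAN replicate 3 and 0 without LA replicate 1 or 2. C1qa, a complement protein, was at 58.4, 50.98, 26.04 and 65.6 CPM in the sSAN against 22.99, 27.7, 27.9 and 26.2 in the LA (log2 fold change 0.95 at adjusted p = 0.024, and 0.061 with the block). Of 7 T cell genes 2 were higher: Rag1, a recombinase of developing lymphocytes, at 1.92, 1.92, 5.85 and 1.18 CPM in the sSAN against 0.0427, 0.0837, 0.04602 and 0.288 in the LA (log2 fold change 4.54 at adjusted p = 0.0037), and Lck, a T cell kinase, at a log2 fold change of 1.23 (at adjusted p = 0.015). Of 5 erythroid genes 4 were higher, namely Alas2, Hbb and both identifiers of Hba-a2, whose reads cannot be told apart. Leaving out any 1 sSAN library gave 0 to 2 of them, leaving out LA replicate 2, 3 or 4 gave 0, and 4 were called without LA replicate 1. The 59-day rats alone, and the fit without rat 2, gave 0.

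Of 24 genes of the BMP and TGF-beta family, 8 were higher and 2 lower. Gdf10, a ligand of the family, was at 18.7, 11.9, 5.799 and 9.55 CPM in the sSAN against 0.256, 0.251, 0.2301 and 0.481 in the LA (log2 fold change 5.23 ± 0.43 at adjusted p = 0.00048). Bmp5 was at 4.18, 2.402, 4.05 and 3.53 CPM in the sSAN against 16.1, 14.2, 12.7 and 12.02 in the LA (log2 fold change -1.94 ± 0.19 at adjusted p = 0.00075). Fst, follistatin, an antagonist of activins, was higher, with a log2 fold change of 2.41 (at adjusted p = 0.00077). Of 26 WNT genes 11 were higher and 3 lower, while the summed level was 1041, 901, 998 and 1022 CPM in the sSAN against 1171, 1091, 1134 and 1126 in the LA. The 59-day rats alone gave 13 WNT genes higher and 2 lower, and the 70-day rats alone 2 and 4. Without rat 2 the numbers were 6 and 3, and without LA replicate 1 or 2, 8 were higher. Sfrp2, a secreted modulator of WNT, was at 40.7, 36.6, 79.98 and 62.6 CPM in the sSAN against 7.904, 10.3, 11.4 and 10.6 in the LA (log2 fold change 2.47 at adjusted p = 0.00087), Dkk2 at a log2 fold change of 2.73 (at adjusted p = 0.0012) and Sfrp5 at a log2 fold change of 2.60 (at adjusted p = 0.0027), whereas Frzb was lower, with a log2 fold change of -1.27 (at adjusted p = 0.0021).

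Of 5 Hox genes that passed the filter of 21 listed, 4 were higher and 0 lower. Of these 4, Hoxb4 and Hoxd4 had 33 and 17 counts over the 4 LA libraries and passed the filter through the sSAN. DESeq2, which tested more of the low genes, called 10 higher. Hoxb4, a homeobox gene of the body axis, was at 4.66, 7.45, 3.65 and 3.28 CPM in the sSAN against 0.513, 0.335, 0.09203 and 0.529 in the LA (log2 fold change 3.68 at adjusted p = 0.0014), Hoxb3 at a log2 fold change of 2.17 (at adjusted p = 0.0023), Hoxb2 at a log2 fold change of 1.67 (at adjusted p = 0.0044) and Hoxd4 at a log2 fold change of 2.42 (at adjusted p = 0.015). Of 13 retinoic acid genes 6 were higher and 1 lower. Aldh1a3, an enzyme that makes retinoic acid, was at 45.5, 38.1, 29.6 and 47.1 CPM in the sSAN against 11.8, 10.3, 15.05 and 13.8 in the LA (log2 fold change 1.66 at adjusted p = 0.00077), Aldh1a2 at a log2 fold change of 0.82 (at adjusted p = 0.0037) and Rarres2, chemerin, at a log2 fold change of 1.49 (at adjusted p = 0.00072). Rbp4, the retinol carrier, was at 249, 256, 90.7 and 51.6 CPM in the sSAN against 2.05, 0.335, 0.414 and 0.721 in the LA (log2 fold change 7.51 at adjusted p = 0.0013), in the rat order of the fat genes.

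Of 13 genes of the renin-angiotensin, endothelin and adrenomedullin systems, 4 were higher and 1 lower. Agt, angiotensinogen, was at 217, 182, 74.6 and 54.7 CPM in the sSAN against 4.57, 5.61, 3.27 and 3.61 in the LA (log2 fold change 4.96 ± 0.51 at adjusted p = 0.0012). Ace, the converting enzyme, was at a log2 fold change of 1.34 (at adjusted p = 0.0016), and Agtr1a, the main receptor, at 17.2, 17.4, 8.75 and 14.7 CPM in the sSAN against 5.47, 2.97, 4.92 and 4.13 in the LA (log2 fold change 1.74 at adjusted p = 0.0027). Among 17 semaphorins and neuropilins, Sema3a, an axon repellent, was at 9.195, 7.87, 7.998 and 10.97 CPM in the sSAN against 17, 18.9, 18.3 and 21.1 in the LA (log2 fold change -1.05 at adjusted p = 0.0015) and Sema3b at a log2 fold change of 1.52 (at adjusted p = 0.00089).

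The 15 largest increases among genes past the stringent threshold included Ucp1, Slc36a2, Pck1, Cidec and Retn of the adipocyte lists and Bmp10. The others were Thrsp, a regulator of fat synthesis, at 2705, 2604, 719 and 295 CPM in the sSAN against 2.26, 0, 0.138 and 0.144 in the LA, together with Alb, Mpo, Clstn3, Ankef1, Gys2, Acsm5, Angptl8 and Acvr1c. Alb, albumin, had 7291 counts in the sSAN and 2 in the LA. Mpo, the myeloperoxidase of neutrophils, had 1228 and 0, at least 459.5-fold higher. All 15 had higher mean CPM in the sSAN of the 59-day rats than of the 70-day rats. For Bmp10 this rested on rat 1 (668 CPM), since rat 2 (21.7 CPM) was the lowest sSAN library. Among the 15 largest decreases were Arfgef3, Edil3, Htr2a, Angpt1, Mamdc2, Opcml, Nrg1, Hmgcll1, Sbspon, Pld5, Art4 and Hs6st2. Angpt1, a ligand that steadies vessels, was at 20.7, 18.8, 27.3 and 33.3 CPM in the sSAN against 115, 95.1, 119 and 127 in the LA (log2 fold change -2.18 ± 0.18 at adjusted p = 5e-04). Mamdc2, a matrix protein, was at 17.04, 13.99, 17.4 and 17.2 CPM in the sSAN against 79.6, 79.1, 79.6 and 57.4 in the LA (log2 fold change -2.16 ± 0.13 at adjusted p = 0.00014), and Edil3, a matrix protein of vessels, at 0.305, 0.06005, 0.4999 and 0.784 CPM in the sSAN against 5.08, 5.78, 4.23 and 2.98 in the LA (log2 fold change -3.40 at adjusted p = 0.0022).

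The sSAN libraries serve in both node comparisons, so calls against LA and RA are not independent. Against the RA, 3123 of 14038 genes (22.2%) were called, 1932 (13.8%) higher in the sSAN and 1191 (8.48%) lower. Of the 1670 genes higher against the LA, 1241 were also higher against the RA, which is 74.3% of the LA calls and 64.2% of the RA calls. Of the 1187 lower genes, 713 were lower against both, 60.1% of the LA calls and 59.9% of the RA calls. Among genes held against both atria and not called between them without the block (1137 higher and 639 lower), the smallest p-values included those of Prdm8, Shox2, Cnn1, Dact2, Clec3b and Pllp on the higher side and of Bmp5, Hook1, Fras1, Gabrb2, Art4, Ypel2, Mef2a and Prune2 on the lower.

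Prdm8, a transcriptional repressor known from neurons, was at 6.06, 7.27, 4.999 and 5.63 CPM in the sSAN, 0.214, 0.4604, 0.2301 and 0.2404 in the LA and 0.0983, 0.0496, 0.148 and 0.0485 in the RA (log2 fold change 4.36 ± 0.28 at adjusted p = 0.00014 against the LA). Dact2, a modulator of WNT and TGF-beta signals, was at 11.5, 13.3, 7.898 and 7.84 CPM in the sSAN against 1.45, 1.59, 1.33 and 1.25 in the LA (log2 fold change 2.85 at adjusted p = 0.00033), and Clec3b, tetranectin, at 104, 92.1, 94.4 and 108 CPM in the sSAN against 42.8, 39.6, 43.7 and 48.99 in the LA (log2 fold change 1.20 at adjusted p = 0.00033). Hook1, a cargo adaptor for microtubule transport, was at 17.2, 16.9, 17.1 and 18.7 CPM in the sSAN against 29.5, 32.6, 31.1 and 32.5 in the LA (log2 fold change -0.84 at adjusted p = 0.00076), and Fras1, a basement membrane protein, at 16.5, 17.4, 11.8 and 12.9 CPM in the sSAN against 42.9, 50.9, 33.4 and 46.2 in the LA (log2 fold change -1.55 at adjusted p = 0.00086). The groups did not overlap in any of these 5, as in 3804 (27%) of all genes tested. Choosing genes by the smallest p favors groups that do not overlap.

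Differences against the LA alone were 423 higher and 451 lower. LA over RA was called in the matching direction for 156 of the 423 and 143 of the 451, and for the other 267 and 308 it was not called in the fit without the block. Both comparisons use the LA libraries, so these calls are not independent.

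The fold of sSAN over LA differed between the ages for 273 of 14112 genes (1.93%), smaller in the 70-day rats for 248 and larger for 25. Of the 1670 genes higher in the sSAN, 148 were among them, and of the 1187 lower genes, 2. Gpd1, a glycerol phosphate dehydrogenase of fat, was at 3926, 4943, 922 and 465 CPM in the sSAN against 11.5, 11.1, 12.3 and 12.8 in the LA, and the difference of its fold, 70-day minus 59-day, was -2.82 on the log2 scale (adjusted p = 0.028). Gk, Retsat, Pdk4 and Angptl4, lipid genes named after their values were seen, differed by -2.60, -2.39, -2.72 and -3.41 (adjusted p = 0.0018, 0.0027, 0.0027 and 0.0027). With 2 rats per age, age and the level of fat transcripts in the sSAN piece cannot be told apart.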

How the data were processed

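RNA was sequenced from pieces of 5 heart regions, and the sSAN, LA and RA libraries (4 each) were used here. The authors filtered paired reads, aligned them with HISAT2 to a rat reference and counted them per gene with HTSeq 0.6.1, and the raw counts were deposited without normalization. A genome build name is not given in the sources used here. The deposited FPKM values, made by the authors per gene length and depth, were used only to compare levels between the HCN genes. Another 72 normalized per-sample columns, and columns of the authors' own DESeq2 comparisons (log2 fold changes and p-values), were not used.

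Counts were scaled by TMM, filtered with filterByExpr by region and tested for each pair of regions with edgeR 4.0.16 (robust glmQLFit, glmQLFTest; limma 3.58.1, R 4.3.3), with Benjamini-Hochberg adjustment over all genes tested. DESeq2 1.42.0, other scalings, filters, covariates and left-out libraries were alternatives. Called means an adjusted p under 0.05, and stringent a fold of more than 3 at an adjusted p below 0.01. Single values were compared by exact permutation over samples. On simulated counts for sSAN against LA (13961 genes), 74% of genes changed 2-fold and 99% of those changed 4-fold were recovered, with 8 calls among unchanged genes. The 200 changed genes were drawn only from genes above a count floor, and no simulated library was made to stand apart. These rates therefore do not cover genes with few counts or the uneven sSAN libraries.

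Libraries were paired by title ending. Residuals of sSAN and LA libraries of the same rat correlated at 0.219, 0.109, 0.255 and 0.172 (13167 genes), against means of -0.084 to -0.035 with other rats, so the endings were taken to pair the samples. The main fits and the permutation test did not use these pairs, which entered only the fits with the rat as a block. The labels do not name the animals, so p-values measure the spread between these samples. No 2 libraries agreed within counting noise.

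Named genes were the 15 highest and 15 lowest folds past the stringent threshold with a mean of at least 1 CPM, the same direction in 4 pairs and a symbol; up to 4 genes per list by p; all genes of the sinus node transcription factor, left-right and pacemaker and calcium channel lists; the 8 smallest p each way between the atria among genes also called in sSAN against LA, and each way against both atria with no call between them; and genes the study names. Some genes that this rule selects are not reported here. Members and lists were chosen with earlier results of these data known. Of 676 list symbols, 654 were matched.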

Additional observations from a re-analysis of the deposited data

Results flagged for a closer look

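In groups of 4 libraries, 1 library stood apart from the other 3 in 28 of 482 gene and region sets, measured as its gap to the nearest other library over the whole range of the group. Chance alone sets about 1 in 20 groups apart in this way. In the sSAN, replicate 1 was lowest for Tbx3 (0.926), replicate 2 was lowest for Mamdc2 (0.882) and highest for Lmod1 (0.875), replicate 3 was highest for Rag1 (0.840) and Lck (0.895), and replicate 4 was highest for Hook1 (0.835) and Rapgef4 (0.845). In the LA, replicate 1 was highest for Uchl1 (0.932), Adipoq (0.978), Thrsp (0.936), Cidec (0.911), Alas2 (0.905) and Frzb (0.835). LA replicate 2 was lowest for Myom1 (0.835), replicate 3 highest for Shmt2 (0.886), and replicate 4 lowest for Mamdc2 (0.977) and highest for Rfx4 (0.870). In the RA, replicate 1 was highest for Acta2 (0.919), Ace (0.852), Fbln2 (0.860), Akap13 (0.971) and Hbb (0.897), replicate 2 was highest for Dsc2 (0.978), replicate 3 was lowest for Cacnb1 (0.960) and Clec3b (0.854), and replicate 4 was highest for Rag1 (0.940) and lowest for Cacnb3 (0.954) and Tagln (0.853).

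The log2 fold change of sSAN over LA differed between the ages, 70-day minus 59-day, for 9 genes named in the report, by the interaction term of the edgeR fit. The differences were -2.39 for Retsat, -2.60 for Gk, -2.82 for Gpd1, -2.72 for Pdk4, -3.41 for Angptl4, -1.11 for Eci1 and -1.93 for Acadm, and 1.03 for Ddc and 2.28 for Rec114. The adjusted p-values from edgeR ran from 0.0018 (Gk) to 0.041 (Rec114). The level of fat transcripts in the sSAN pieces was higher in the 59-day rats than in the 70-day rats, and its part in these differences was not tested.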

How the results depend on the processing

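With RLE size factors, with every gene kept that had a count, without the mitochondrial genes and with the block, every count of sSAN against LA stayed within 1.5 times its value. DESeq2 gave 617 higher and 64 lower genes at the stringent threshold. With all 5 regions in 1 fit, 1983 genes were lower against LA, 508 were higher at the stringent threshold, 1302 were lower against both atria and 546 were called between LA and RA. With the rat as a replicate block, 1658 were higher and 1353 lower against LA, and 2492 were called between LA and RA. Among genes named in the report the block ended the calls against LA of Acaa2, Acadm, C1qa, Cd300e, Cox4i1, Gk, Sdhb and Slc24a4 and made that of Meis1. The 59-day rats alone gave 11 genes called oppositely against the atria and 614 between LA and RA. The 70-day rats alone gave 705 higher and 533 lower, 143 and 20 at the stringent threshold, 480 and 318 against both atria, 16 called oppositely and 384 between LA and RA. Without rat 2 these were 780 and 627, 78 and 16, 504 and 352, 16 and 705. Leaving out 1 library gave 968 to 1807 higher and 607 to 1316 lower, 106 to 405 and 17 to 47 at the stringent threshold, 764 to 1404 and 421 to 828 against both atria, 14 to 30 called oppositely, 854 to 1014 between LA and RA, and a difference in mitochondrial share of 8.49 to 14.0 percentage points.

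With the log2 CPM of Adipoq as a covariate, whose correlation with region was 0.950 and which made the median SE 3.28 times larger, 1 gene was higher and 0 lower, and 0 passed in either direction at the stringent threshold, against both atria or oppositely. Fold changes then reversed to -0.75 for Adipoq, -0.77 for Hoxd4, -0.13 for Hoxb2, -1.02 and -1.10 for the 2 identifiers of Hba-a2, -1.51 for Alas2, -2.09 for Chrnb4, -1.08 for Hbb and -0.27 for Acvr1c, and the cause was not tested. With its linear CPM, an alternative chosen after seeing the data (correlation with region 0.753, median SE 1.34 times larger), 938 were higher and 698 lower, 174 and 18 at the stringent threshold, 567 and 421 against both atria, and 3 oppositely. Of the 938 and 698, 604 and 339 were among the calls without the covariate. Depth limits the genes at 0 to 3 counts in the LA, whose folds are bounds or ratios with counting intervals.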
